A study of Mus musculus with 185 samples.

Results

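The hippocampus of mice fasted for 16 h was compared with the hippocampus of chow-fed mice. The deposited count table holds 185 columns, 5 for each of 37 mice, and the 5 columns of a mouse share 1 heading, so the headings give the mouse and not the brain area. The hippocampal column was therefore found from the values. In each mouse, among columns with at least 1000000 counts, it was the column with the highest mean log2(CPM+1), with CPM being counts scaled to 1000000 per column, of C1ql2, Lct, Dsp and Iyd, genes of the dentate gyrus, provided that this mean was at least 1 above that of the next column. The rule found 9 of the 185 columns, from 4 chow mice and 5 fasted mice, and a further 5 from mice given a high-fat diet (HFD). Because these 4 genes chose the columns, they were left out of every test.

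RNA was measured in dissected brain areas of male C57BL/6 J mice of 8 weeks that were fasted, fed chow or switched to HFD. In the 16 h experiment 18 mice were pair-housed, with 3 cages for each diet, water was free to all, and the areas taken were hypothalamus, hippocampus, superior colliculus, inferior colliculus and a frontal part of the cortex, with the hippocampus from 1 hemisphere chosen at random. The chow mice ate Altromin 1324, the fasted mice had no food for 16 h and the HFD mice ate D12331 for the same time. A separate 24 h experiment compared chow with fasting in singly housed mice, and the rule found a hippocampal column in 8 chow and 8 fasted mice there. The chow mice described here, numbered 1, 2, 5 and 6, came from 2 cages, and the fasted mice, numbered 7, 8, 9, 10 and 12, came from 3 cages. Cage mates are not independent in food intake or handling, so the p-values measure the spread between these mice only. Body weight changed by −2.51, −1.30, −2.49, −2.03 and −6.49% in the fasted mice and by 5.13, 0.386, −1.21 and 4.25% in the chow mice, in the order of their numbers.

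The hippocampus is a folded cortical structure that serves episodic and spatial memory, and its main excitatory cells are the granule neurons of the dentate gyrus and the pyramidal neurons of fields CA3, CA2 and CA1. It carries dense receptors for corticosteroids, and its neurons and glia also respond to ghrelin, leptin, insulin and glucagon-like peptide 1, hormones that follow the fed state. During a fast, corticosterone from the adrenal gland commonly rises in rodents, and its receptor, a nuclear transcription factor, acts on genes such as Fkbp5 and Sgk1.

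No column was found for 4 of the 18 mice of the 16 h experiment. Chow mouse 3 had a best score of 2.39 with a margin of 0.603, HFD mouse 13 had 2 columns at 5.98 and 5.44, and the labels give the hippocampal libraries of chow mouse 4 and fasted mouse 11 as failed. The lowest margin among the chosen columns was 1.66. Fasted mouse 12 also had a column with a score of 3.89 that fell under the minimum of counts and was not used. The scores were 3.43, 5.46, 5.32 and 3.72 in the chow mice and 5.81, 4.86, 6.02, 3.53 and 5.70 in the fasted mice, and the total counts of these 9 columns ranged from 13457670 to 50690303. The 5 HFD columns had 9977963 to 28460682 counts. In the 24 h experiment the labels give the hippocampal libraries of 5 of the 16 mice with a column, chow mice 1431, 1441 and 1452 and fasted mice 1424 and 1444, as failed and as sequenced on an SP flowcell, apart from the S2 flowcell of the other 11. The columns of these 5 mice held 9.47 to 24.8% mitochondrial reads and those of the other 11 held 6.55 to 8.89%. The main counts of genes called at 24 h are therefore given with and without them. Other 24 h values rest on all 16 mice unless stated.

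**Figure D1:**
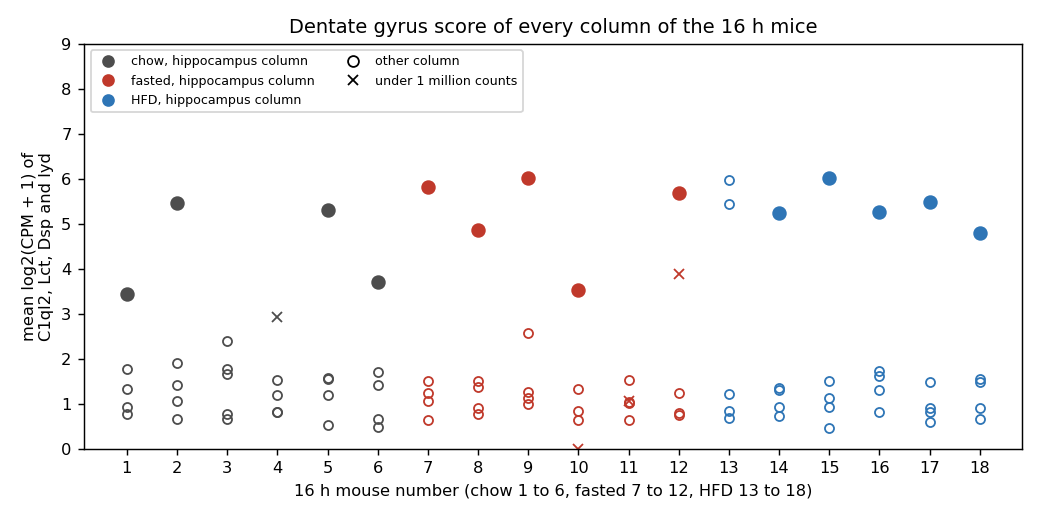
Mean log2(CPM+1) of C1ql2, Lct, Dsp and Iyd in every column of the 18 mice of the 16 h experiment, with 1 position on the horizontal axis per mouse, grouped by diet. Filled points are the chosen hippocampal columns and crosses are columns with fewer than 1000000 counts; chow mice 1 and 6 and fasted mouse 10 have chosen columns with scores under 4.

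Markers that the rule did not use were compared between the chosen column and the other columns of the same mouse. The mean log2(CPM+1) of 14 hippocampal genes, 4.73 to 6.07 in the chosen columns, was the highest of the mouse's columns in 8 of 9 mice, as was that of 10 dentate granule genes. The exception was chow mouse 1 for the hippocampal genes, at 4.73 against 4.77 in another column. For the dentate granule genes it was fasted mouse 10, at 4.65 against 4.80. Both chosen columns had dentate scores under 4. The 8 CA1 genes were highest in the chosen column in 9 of 9 mice, whereas the 10 genes of CA3 and CA2, which other areas also express, were highest there in 3 of 9. The chosen columns differed among themselves in dentate and cortical genes. Prox1, a homeobox factor of dentate granule neurons, was at 77.4, 336, 247 and 69.7 CPM in the chow mice and at 393, 201, 274, 73.3 and 239 CPM in the fasted mice. Cux2, a factor of upper-layer cortical neurons, was at 103, 30.3, 55.8 and 164 CPM in the chow mice and at 35.3, 38.6, 32.7, 116 and 37.5 CPM in the fasted mice. Chow mice 1 and 6 and fasted mouse 10 thus held the lowest Prox1 and the highest Cux2 of the 9 columns. Ttr, a transthyretin gene expressed at very high level in the choroid plexus, was at 1066.7 CPM in fasted mouse 9 and at most at 25.4 CPM in the other 8. Neither low Prox1 nor high Ttr was shared by all mice of a diet, but the columns of 2 of 4 chow mice and 1 of 5 fasted mice had the low dentate score.

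Over 16 lists of genes that mark areas and cell types, the mean log2(CPM+1) of a list was compared between diets by a two-sided exact permutation test over the 9 mice, whose smallest possible p is 0.0159. No list passed, with adjusted p of 0.577 to 0.81 by that test. A single list at the smallest p could not pass after adjustment over 16 lists. The outcome therefore does not show equal levels between the diets. The 10 neocortex genes had a mean of 5.01 ± 0.521 (SD, n = 4) in chow and 4.47 ± 0.264 (SD, n = 5) in fasted mice, with an exact permutation p of 0.127. The 10 genes of CA3 and CA2 had means of 4.41 ± 0.186 in chow and 4.85 ± 0.530 in fasted mice, with p = 0.19 by the same exact test. The choroid plexus genes averaged 1.43 ± 0.249 in chow mice and 2.08 ± 1.29 in fasted mice, with p = 0.349 by the exact permutation test, and their range over fasted mice ran from 1.30 to 4.35. Astrocyte genes lay between 7.41 and 7.66 in all 9 mice.

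**Figure D2:**
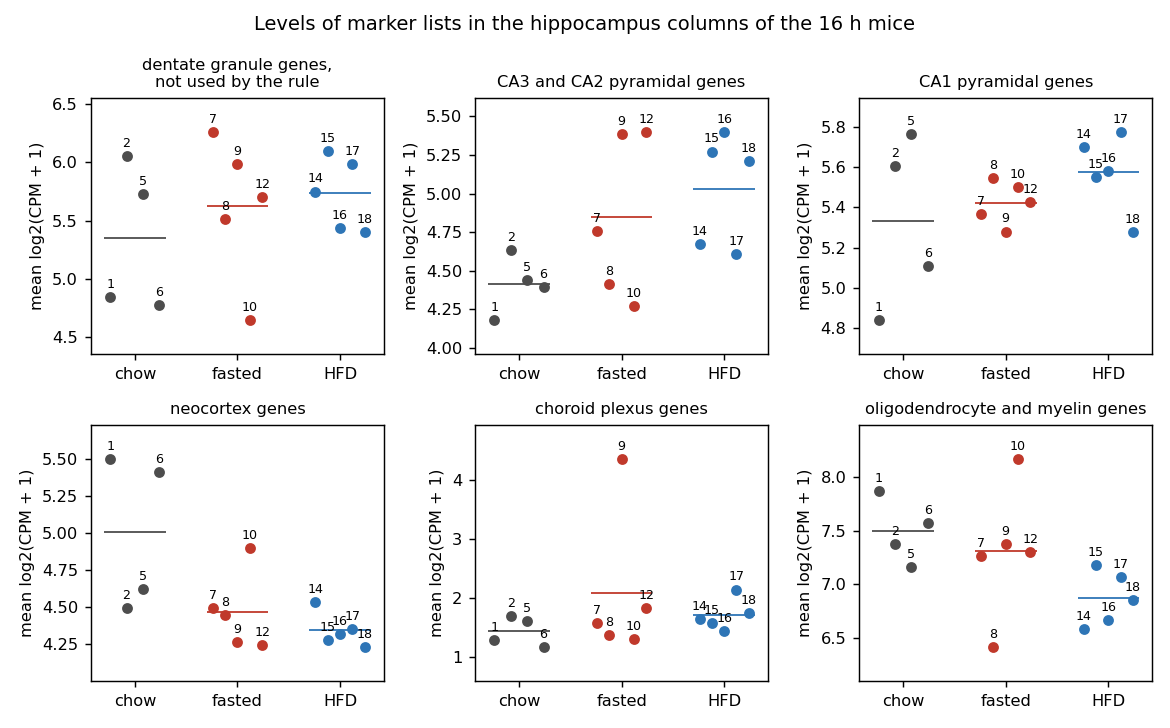
Mean log2(CPM+1) of 6 marker lists in each hippocampal column of the 16 h experiment, by diet, with 1 point per mouse. Chow mice 1 and 6 stand above the other mice for neocortex genes (5.50 and 5.41), and fasted mouse 9 stands apart for choroid plexus genes (4.35).

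The question of the comparison was which hippocampal genes differ after 16 h without food. No gene passed. Of 22576 genes tested with edgeR's quasi-likelihood test, 0 were called at an adjusted p under 0.05, a share of 0%, and the lowest adjusted p was 0.899. At an unadjusted p under 0.05 there were 1138 genes, 5.04% of those tested, of which 517 (2.29%) had higher and 621 (2.75%) lower values in fasted mice. DESeq2 called 0 of 32596 genes, with a lowest adjusted p of 0.193 and 1448 at an unadjusted p under 0.05, and limma with voom weights called 0, with 1243 at an unadjusted p under 0.05. The median log2 difference over all genes was −0.00065. Among the 19624 genes whose average level was 1 CPM or more, the median SE of the log2 difference was 0.14, and a shift of about that size in a single gene was not detectable with 4 against 5 mice once 22576 genes were tested. In bulk tissue, fewer cells of a type and less RNA per cell cannot be told apart.

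The genes named next are the 30 with the lowest p, and each had an adjusted p of 0.899 in edgeR's quasi-likelihood test. In 14 of them the fasted mice were higher and in 16 lower. In 19 of the 30 the values of the 2 groups did not overlap, against 117 genes (0.518%) with every fasted mouse above every chow mouse and 132 genes (0.585%) with every fasted mouse below among all tested. Cages were started in successive rounds by clock time, and rounds 1 and 3 held chosen columns of both diets. In round 3 the fasted group was mouse 12 alone. All 30 had the same sign in round 1 and in round 3. Choosing genes by low p favours both the count of 19 and that of all 30, and the second was not taken over all genes. Of the 30, 18 are protein coding and 4 are pseudogenes, whose reads a parent gene can share. Of the 29 with a position in the annotation, 21 overlap another annotated gene, and since the strand setting of the counts is not given in the sources used here, reads of such pairs may be split or mixed.

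Sdc4 encodes syndecan 4, a heparan sulphate proteoglycan of the cell surface that astrocytes also make, and it lies at chr2:164266025-164285807, reverse strand of GRCm39, overlapping no other annotated gene. Its values were 61.7, 67.7, 65.8 and 59.8 CPM in the chow mice and 83.7, 72.4, 78.2, 80.8 and 92.0 CPM in the fasted mice. Every fasted mouse was above every chow mouse. The log2 difference was 0.35 ± 0.07 (SE), a fold of 1.28, with an unadjusted p of 0.000265, and it was 0.29 without the 3 columns with a dentate score under 4.

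Ddit4, also known as REDD1, encodes an inhibitor of mTORC1 that glucocorticoids and energy stress induce (chr10:59785491-59788492, reverse strand, overlapping no other gene). It was at 23.7, 27.5, 30.8 and 29.6 CPM in the chow mice and 31.6, 35.5, 42.4, 34.0 and 38.4 CPM in the fasted mice. The groups did not overlap, and chow mouse 5 and fasted mouse 7 were the closest. The log2 difference was 0.38 ± 0.10, a fold of 1.30, with an unadjusted p of 0.00117.

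Hif3a encodes hypoxia-inducible factor 3 alpha, a member of the HIF family with isoforms that restrain the other members (chr7:16764918-16796352, reverse strand). Chow mice had 4.97, 6.11, 5.66 and 7.27 CPM and fasted mice 9.34, 7.84, 7.42, 13.3 and 17.2 CPM. The groups did not overlap, and fasted mice 10 and 12 were well above the other 3. The log2 difference was 0.88 ± 0.22, a fold of 1.85, with an unadjusted p of 0.00129, and leaving out single mice gave 0.66 to 1.00.

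Slc6a15 encodes a sodium-dependent transporter that carries branched-chain amino acids and proline into neurons (chr10:103202915-103255240, forward strand). It was at 66.8, 67.6, 73.8 and 59.9 CPM in the chow mice and 88.6, 96.2, 92.5, 70.2 and 93.6 CPM in the fasted mice. Fasted mouse 10, a column with a low dentate score, was below the highest chow mouse, and the other 4 fasted mice were above all chow mice. The log2 difference was 0.40 ± 0.09, with an unadjusted p of 0.000346. Without fasted mouse 10 it was 0.47, with an adjusted p of 0.095 by edgeR's quasi-likelihood test, the lowest adjusted p that any gene had under any alternative.

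The other 10 genes with higher values in fasted mice were of lower level or less known. Sh3bp2, an adaptor protein of immune receptor signalling, was at 3.75, 5.40, 4.61 and 3.83 CPM in chow and 6.25, 5.35, 7.14, 7.63 and 7.38 CPM in fasted mice, a log2 difference of 0.61 ± 0.14. Chow mice 1 and 6 were the lowest, and without the low-score columns its difference was 0.40. Adgb, the androglobin gene known from testis and ciliated cells, was at 0.71, 0.866, 0.566 and 0.438 CPM in chow and 1.72, 1.52, 3.34, 0.784 and 2.04 CPM in fasted mice, with a log2 difference of 1.57 ± 0.35. Frmpd2, which encodes a scaffold protein with PDZ domains that binds glutamate receptors, was at 0.775, 0.866, 0.781 and 0.985 CPM in chow and 2.72, 1.22, 4.36, 1.14 and 3.07 CPM in fasted mice, with a log2 difference of 1.58 ± 0.42. Both Adgb and Frmpd2 were under 1 CPM in every chow mouse, so few reads stand behind their larger differences. The remaining 7 were Slc23a4, a member of the nucleobase and ascorbate transporter family (1.03 ± 0.26), 1700093K21Rik (0.86 ± 0.23), and the non-coding genes or pseudogenes Gm37362 (1.13 ± 0.23), Gm37891 (0.53 ± 0.13), Zeb1os1 (0.28 ± 0.07), Gm53031 (1.03 ± 0.27) and Gm18325 (0.46 ± 0.12), given as log2 differences with their SE.

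Pla2g4b, which encodes a cytosolic phospholipase A2, was lower in every fasted mouse than in every chow mouse. It was at 1.81, 2.09, 1.99 and 2.30 CPM in the chow mice and 0.997, 1.34, 0.963, 1.35 and 1.19 CPM in the fasted mice. The log2 difference was −0.81 ± 0.17, with an unadjusted p of 0.000188, but the gene overlaps another on its own strand (chr2:119863898-119873511, forward strand) and reads in the shared part belong to no single gene. Kctd21, which encodes an adaptor of a ubiquitin ligase, was at 13.2, 12.0, 12.0 and 12.7 CPM in chow and 9.34, 10.10, 9.01, 11.8 and 9.33 CPM in fasted mice, without overlap, and differed by −0.34 ± 0.09 on the log2 scale. Pianp, which encodes a neural membrane protein that binds a paired immunoglobulin-like receptor, was at 74.8, 74.7, 66.8 and 73.3 CPM in chow and 62.0, 65.7, 54.8, 62.4 and 60.7 CPM in fasted mice, also without overlap, and differed by −0.24 ± 0.06. These 3 genes kept most of their difference without the low-score columns, at −0.85, −0.35 and −0.21.

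Another group of lower genes followed the low-score columns of the chow mice. Igfn1, an immunoglobulin-like and fibronectin domain gene, was at 26.6, 1.32, 1.11 and 23.4 CPM in chow and 0.634, 0.791, 2.10, 2.35 and 0.912 CPM in fasted mice. Chow mice 1 and 6 stood far above the other 7 mice. Its log2 difference of −3.30 ± 0.80 was the lowest of the genes tested, and it was −0.14 without the low-score columns. Myl4, an alkali myosin light chain of atrial muscle, was at 9.11, 1.78, 1.23 and 6.73 CPM in chow and 0.906, 1.95, 1.42, 0.784 and 1.03 CPM in fasted mice, and its log2 difference went from −1.92 ± 0.50 to −0.18. Sema3a, a secreted repulsive axon guidance factor, was at 30.7, 12.3, 10.46 and 31.9 CPM in chow and 8.79, 5.23, 5.83, 14.0 and 6.47 CPM in fasted mice, and its log2 difference went from −1.40 ± 0.37 to −0.77. For C130074G19Rik the values were −1.07 ± 0.28 and −0.20, and for Gm29530 −1.45 ± 0.38 and −0.57. In all, 4 of the 30 genes had less than 50% of their difference left without those columns. In 14 of the 30, higher or lower, chow mice 1 and 6 were both above or both below the other chow mice and all fasted mice. Choosing the 30 by low p against these chow mice can favour this count, and it was not taken over all genes. The neocortex markers were high in the same 2 chow mice, and their part in these results was not tested.

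The other lower genes were Zbtb40, a zinc finger gene (−0.42 ± 0.11), Ccdc174 (−0.24 ± 0.06), Gm42496 (−1.46 ± 0.31), Gm14739 (−1.53 ± 0.34), Ctdsp2-ps (−1.10 ± 0.27), Gm12063 (−0.78 ± 0.20), Gm37212 (−0.46 ± 0.12) and ENSMUSG00000095041, which has no symbol or position in the annotation used (−1.51 ± 0.35), again as log2 differences with their SE. ENSMUSG00000095041 was the most abundant of the 30, at 116, 323, 147 and 443 CPM in chow and 149, 97.0, 77.0, 59.4 and 69.1 CPM in fasted mice. Fasted mouse 7 was above chow mice 1 and 5, so the groups overlapped.

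**Figure D3:**
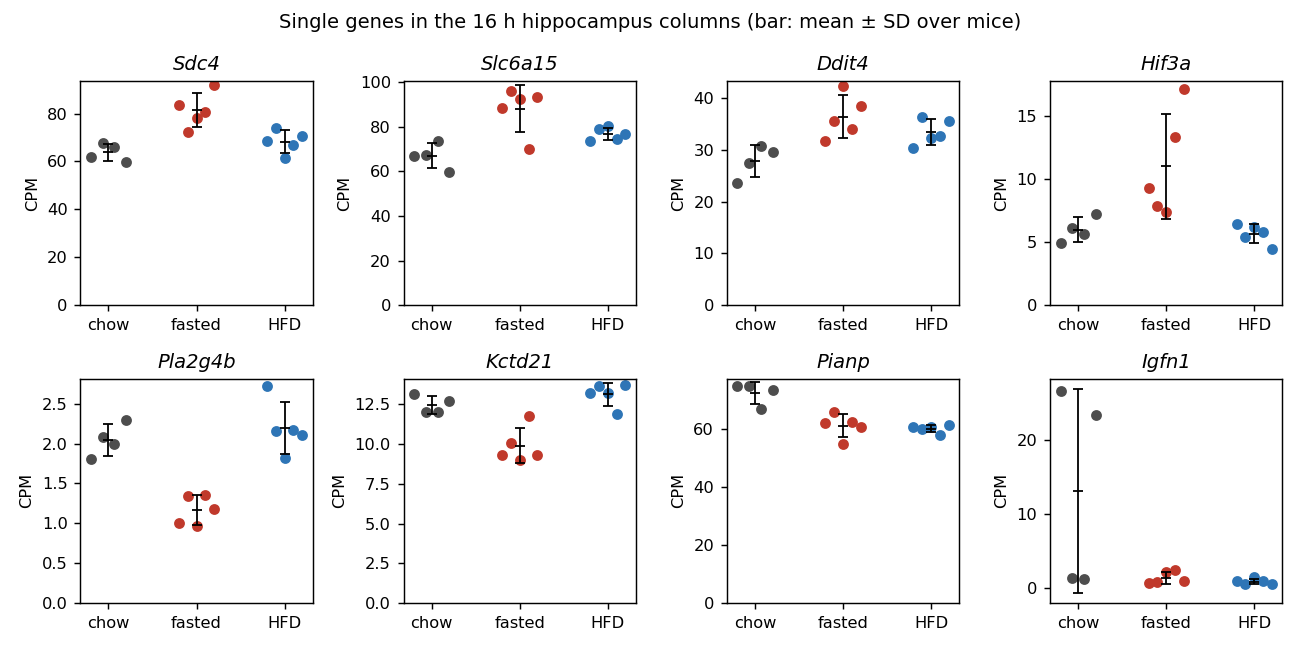
CPM of Sdc4, Slc6a15, Ddit4, Hif3a, Pla2g4b, Kctd21, Pianp and Igfn1 in each hippocampal column of the 16 h experiment, by diet; points are mice and bars give the mean ± SD. Fasted mice are above all chow mice for Sdc4, Ddit4 and Hif3a and below all for Pla2g4b, Kctd21 and Pianp, and the Igfn1 mean of the chow group rests on 2 mice at 26.6 and 23.4 CPM.

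Mice switched to HFD for 16 h shared the chow controls, so their values are given only beside those of fasting. HFD against chow had 0 genes called in the same edgeR quasi-likelihood fit, with a lowest adjusted p of 0.400. At an unadjusted p under 0.05 there were 1101 genes (4.88%) higher and 1433 (6.35%) lower in HFD than in chow mice. In 17 of the 30 genes the median of the HFD mice fell within the range of the fasted mice. Choosing the 30 by low p against the same chow mice can favour this count, and it was not taken over all genes. Hif3a was at 4.50 to 6.44 CPM in the HFD mice, below all fasted mice. Sdc4 was at 61.4 to 73.9 CPM, Ddit4 at 30.3 to 36.3 CPM and Slc6a15 at 73.7 to 80.3 CPM in the HFD mice. Their ranges overlapped with those of the fasted mice, for Sdc4 only through fasted mouse 8 and for Slc6a15 only through fasted mouse 10. The other fasted mice were above all HFD mice for Sdc4 and Slc6a15.

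The hippocampus after 24 h of fasting, in other mice, gave a measure that the 16 h comparison had not used. There 151 of 19392 genes (0.779%) passed edgeR's quasi-likelihood test at an adjusted p under 0.05, 97 of them higher (0.5%) and 54 lower (0.278%) in fasted mice, and 1842 (9.5%) had an unadjusted p under 0.05. Without the 5 mice of the SP flowcell the same test called 1176 of 21956 genes (5.36%), 616 higher (2.81%) and 560 lower (2.55%), with 4870 (22.2%) at an unadjusted p under 0.05. Of the 151 genes, 146 were among these 1176. DESeq2 called 601 genes over all 16 mice, and edgeR 79 without fasted mouse 1433, 93 without 1435, 98 without 1434 and 100 without chow mouse 1443. Of the 97, 95 were tested at 16 h, and 82 of these (86.3%) were also higher in the fasted mice, against 49.8% of all genes tested at 16 h with a positive sign. Of the 54, 47 (87.0%) were also lower, against 50.2% of all genes. The differences at 16 h were small, with a median log2 difference of 0.16 for the first set, where the 24 h median was 1.09, and −0.17 for the second, where the 24 h median was −0.75. Without the low-score columns the counts were 81 of 95 and 46 of 54. Of the genes called without the SP flowcell, 494 of 599 (82.5%) higher ones and 450 of 554 (81.2%) lower ones had the same sign at 16 h, with medians of 0.12 and −0.14. Genes that vary together within the hippocampus share these signs, so the count is a description of the 9 mice and carries no p.

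A score over 149 of these genes, the mean of log2 values signed by the 24 h direction and centred over the columns, gave −0.18, −0.0069, −0.0506 and −0.139 for the chow mice and 0.0222, −0.0405, 0.152, −0.002 and 0.261 for the fasted mice. Fasted mouse 8 lay below chow mouse 2, so the groups overlapped. Fasted mice 12 and 9 had the highest scores, and chow mice 1 and 6, whose columns had low dentate scores, had the lowest. Mouse 12 also had the largest weight loss of these fasted mice, a change of −6.49%. The change was −2.49% in mouse 9 and −2.51% in mouse 7, whose score was 0.0222. HFD mice ranged from −0.0472 to 0.0295.

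Among the 149 genes, 23 had an unadjusted p under 0.05 at 16 h with the sign they had at 24 h, and 1 had the opposite sign. The 23 were 15 of 95 higher genes and 8 of 54 lower ones, beside 2.29% higher and 2.75% lower of all genes. Without the low-score columns 5 higher and 3 lower genes were left, and without fasted mouse 9 there were 12 and 3. Of these 23 genes, Hif3a, Sdc4 and Ddit4 were also among the 30 genes of lowest p at 16 h. Of those 30, 22 were tested at 24 h over all 16 mice, 13 had the same sign there and only these 3 were called. These counts were not taken without the SP flowcell. At 24 h the lowest, median and highest CPM of Hif3a were 1.33, 2.80 and 4.73 in chow and 10.6, 26.7 and 35.1 in fasted mice. For Sdc4 they were 55.3, 63.5 and 79.3 in chow and 98.0, 112 and 166 in fasted mice, and for Ddit4 27.7, 31.7 and 60.8 in chow and 63.3, 81.9 and 223 in fasted mice. All 3 genes had no overlap between the diets at 24 h.

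Further genes of this set were Fkbp5, a chaperone that restrains the glucocorticoid receptor, and Sgk1, the serum and glucocorticoid regulated kinase. Fkbp5 was at 31.1, 55.1, 55.3 and 31.0 CPM in chow and 67.7, 49.5, 62.1, 45.4 and 67.4 CPM in fasted mice at 16 h, a log2 difference of 0.43 ± 0.18. Sgk1 was at 50.6, 50.0, 45.9 and 45.8 CPM in chow and 51.6, 46.4, 83.6, 66.1 and 89.7 CPM in fasted mice, a log2 difference of 0.49 ± 0.18. Plin4, a lipid droplet coat protein, was at 10.53, 15.3, 14.5 and 14.0 CPM in chow and 12.6, 13.1, 18.9, 22.2 and 21.9 CPM in fasted mice, and differed by 0.38 ± 0.17. In each of these the groups overlapped at 16 h, and fasted mouse 12 was the highest or the next highest of the fasted mice for Plin4 and Hif3a. The gene with the opposite sign was Zfp36, which encodes an RNA-binding protein that speeds decay of inflammatory transcripts, with a log2 difference of −0.74 and an unadjusted p of 0.018 at 16 h.

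**Figure D4:**
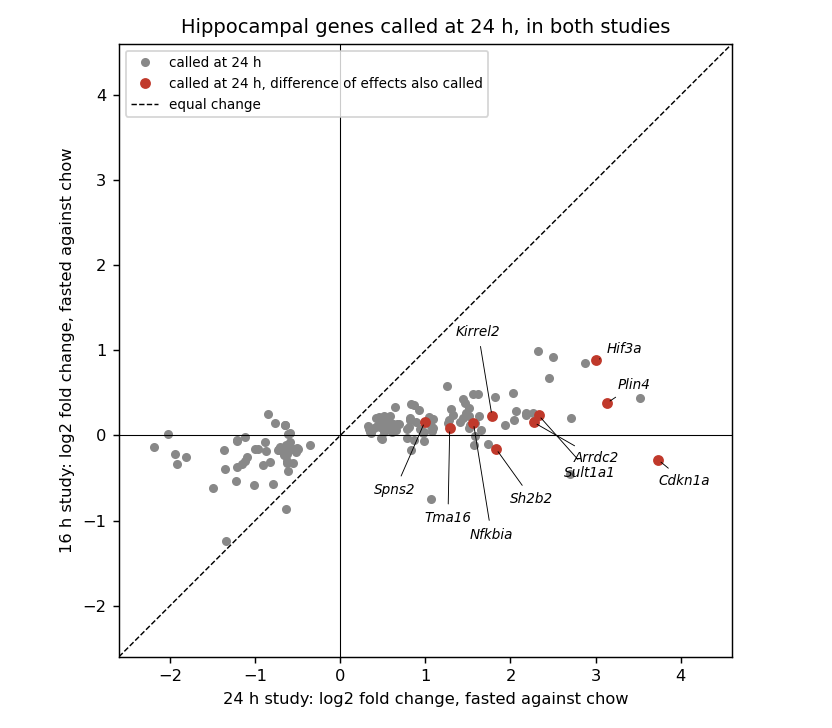
Log2 difference of fasted minus chow mice in the hippocampus at 16 h (vertical) against 24 h (horizontal) for the 149 genes called at 24 h over all 16 mice and tested at 16 h, with 10 genes labelled. Most points share the sign of both studies and lie closer to 0 at 16 h, with medians of 0.16 and −0.17 against 1.09 and −0.75.

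The difference between the 2 fasting effects was tested gene by gene in 1 edgeR quasi-likelihood fit. The effect was larger at 24 h for 10 of 23582 genes (0.0424%) and for none smaller, and 763 genes (3.24%) had an unadjusted p under 0.05. Cdkn1a, the cell cycle inhibitor p21 and a glucocorticoid-responsive gene, differed most, by 4.06 on the log2 scale with an adjusted p of 0.000337 in that edgeR fit. At 16 h it was at 7.30, 4.18, 3.57 and 8.15 CPM in chow and 3.85, 3.59, 4.14, 5.70 and 6.08 CPM in fasted mice, and at 24 h the lowest, median and highest values were 2.76, 4.37 and 6.65 in chow and 22.3, 50.6 and 154 in fasted mice. The fasted mice of the 16 h experiment lay among their controls, and those of the 24 h experiment lay above all of theirs.

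The other genes of this set were Plin4 (a difference of 2.76), Hif3a (2.12), Arrdc2 (2.14), Sult1a1 (2.12), Sh2b2 (2.00), Kirrel2 (1.58), Nfkbia (1.44), Tma16 (1.21) and Spns2 (0.85), with adjusted p of 0.00681 to 0.0422 by edgeR. They include Nfkbia, the inhibitor of NF-kappa-B, and Sult1a1, a sulphotransferase. Duration, sequencing run, housing and the side of the brain changed together between the 2 experiments and cannot be told apart. Body weight changed by −21.4 to −17.8% in the fasted mice with a column at 24 h, against −6.49 to −1.30% at 16 h. The part of weight loss was not tested. Without the 5 mice of the SP flowcell 74 of 23539 genes (0.314%) were called, 57 (0.242%) with a larger effect at 24 h and 17 (0.0722%) with a smaller one, and 2317 (9.84%) had an unadjusted p under 0.05. All 10 genes above were among the 57, with differences of 3.57 for Cdkn1a, 2.44 for Plin4, 2.24 for Hif3a and 0.68 to 2.13 for the other 7. Without the columns of dentate score under 4 the count was 0, with a lowest adjusted p of 0.110, though the differences of the 10 genes stayed at 0.89 to 3.59, with 3.59 for Cdkn1a, 2.92 for Plin4 and 2.21 for Hif3a. Without the HFD columns 2 were called, Cdkn1a and Tma16, and the other 8 differences were 0.85 to 2.76. Single mice also moved the count. Of the 16 h mice, it was 2 without chow mouse 6 or fasted mouse 9, 3 without fasted mouse 8 and 6 without chow mouse 2, chow mouse 5 or fasted mouse 7. Of the 24 h mice, it was 6 without 1422, 1432, 1443 or 1435 and 16 without 1441. The 16 h columns of chow and fasted mice held 3.14 to 5.99% mitochondrial reads, fewer than any 24 h column. The thalamus and habenula genes had a median log2 difference of −2.00 at 24 h, with 0 of 10 called, of −1.50 with 4 called lower without the SP flowcell, and of −0.01 at 16 h. The part of these in the difference was not tested.

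To see what was particular to the hippocampus, its column was set against the sum of the other columns of the same mouse. The within-mouse difference was tested with limma, and 1 of 22528 genes (0.00444%) passed, with 1553 (6.89%) at an unadjusted p under 0.05. It was Fam180a, a gene of little-known function. The log2 hippocampus minus other columns was 0.63, 0.36, 0.48 and 0.56 in the chow mice and −1.02, −1.93, −2.29, −1.38 and −2.30 in the fasted mice, without overlap. The estimate was −2.29 ± 0.30 (SE), with an adjusted p of 0.0465 by limma. In the hippocampus alone it was at 1.61, 1.22, 0.507 and 1.80 CPM in chow and 0.544, 0.547, 0.227, 0.285 and 0.304 CPM in fasted mice, close to the low end of what was counted, with fasted mice 7 and 8 above chow mouse 5. The call was lost when all other columns had equal weight, when the HFD mice were left out, without the low-score columns, and without any single mouse other than fasted mouse 7. The HFD mice lay between −1.40 and −0.34, and 3 or 4 other columns per mouse entered the sum. The other columns were not assigned to areas, and in them the log2 difference of fasted minus chow mice was 0.70. Of the 30 genes with the lowest p, 12 had the same sign in the other columns.

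Gene lists were read by their counts at an unadjusted p under 0.05, beside 2.29% of all genes higher and 2.75% lower, and by their median log2 difference, beside −0.00065 for all genes. No member of any list was called at 16 h. The lists were chosen with earlier results of these data known, so their counts at 16 h and 24 h are descriptions only. Of the 22 glucocorticoid-responsive genes tested, 4 were higher and 0 lower, with a median of 0.12: Ddit4 (0.38), Sgk1 (0.49), Fkbp5 (0.43) and Plin4 (0.38). The count was 1 higher and 1 lower, with a median of 0.09, without the low-score columns, and 2 higher and 0 lower, with a median of 0.14, without fasted mouse 9. At 24 h, by the stricter mark of an adjusted p under 0.05, 14 of 23 rose and 0 fell, beside 0.5% of all genes higher, and without the SP flowcell 18 rose and 0 fell, beside 2.81%. Of the 13 genes of corticosteroid receptors and their control, 2 were higher and 1 lower, with a median of 0.07. These were Fkbp5, the urocortin receptor gene Crhr2 (0.80 ± 0.37) and Fkbp4, a co-chaperone of steroid receptors (−0.18 ± 0.08), and Crhr1, the main receptor of corticotropin-releasing hormone, differed by −0.67 ± 0.34 without passing that mark.

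Clock and activity genes were as follows. Of 19 circadian clock genes, 0 were higher and 2 lower, the nuclear receptors Rorb (−0.44 ± 0.15) and Rora (−0.44 ± 0.20), with a median of −0.03. Rorb also marks layer 4 of the neocortex and Rora the thalamus. Of 18 immediate early genes, which report recent neuronal activity, 0 were higher and 2 lower, with a median of −0.31. The synaptic scaffold gene Homer1 differed by −0.33 ± 0.12 and Egr1, a zinc finger factor, by −0.65 ± 0.23. Without the low-score columns the median of that list was −0.01 with 0 in either direction.

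Among genes of hormone and peptide signalling, 1 of 19 receptors for appetite hormones was higher and 1 lower. Glp1r, the receptor of glucagon-like peptide 1, was at 0.323, 1.63, 1.31 and 0.656 CPM in chow and 2.67, 4.93, 2.44, 0.998 and 3.19 CPM in fasted mice, a log2 difference of 1.47 ± 0.48. Chow mice 1 and 6 and fasted mouse 10, the columns with low dentate scores, had the lowest 3 values. Cckbr, the cholecystokinin B receptor, was at 39.3, 4.33, 6.09 and 39.3 CPM in chow and 5.76, 6.51, 7.36, 13.5 and 5.68 CPM in fasted mice and differed by −1.52 ± 0.55, and without the low-score columns by 0.26, in the other direction. Of 16 neuropeptide genes 1 was lower, Cort, the cortistatin gene of interneurons (−0.70 ± 0.23), and the list's median was −0.14. Of 12 neurotrophic factors and receptors 0 were higher or lower, with Vgf, a secreted neuropeptide precursor, at −0.31 ± 0.15 and Ntrk2, the BDNF receptor, at −0.12 ± 0.09.

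Of the 24 genes of insulin, FoxO and mTORC1 control, 1 was higher, Ddit4, and 3 were lower, the kinase gene Akt2 (−0.21 ± 0.06), the translation repressor Eif4ebp1 (−0.70 ± 0.22) and the forkhead factor Foxo4 (−0.24 ± 0.09). Of 26 genes of fatty acid oxidation and ketone use, 0 were higher or lower, with a median of 0.03 and the monocarboxylate carrier gene Slc16a7 at −0.14 ± 0.08. Of 25 genes of glycolysis, glycogen and lactate, 1 was higher, the brain glycogen phosphorylase Pygb (0.13 ± 0.06), and the median was 0.002. Of 26 genes of sterol and fatty acid synthesis, 0 were higher or lower at that mark, yet 24 of them had a negative sign, with a median of −0.12. An example was Dhcr7, a reductase of the last steps to cholesterol (−0.17 ± 0.12). Without the low-score columns that median was 0.04. At 24 h 4 of the 26 fell, beside 0.278% of all genes, and without the SP flowcell 18 fell, beside 2.55%, with a median of −0.49.

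Of 20 endoplasmic reticulum chaperones and stress genes, 0 were higher and 4 lower, with a median of −0.19. These were the transcription factor Atf4 (−0.21 ± 0.08), the glutathione-degrading Chac1 (−0.39 ± 0.17), the chaperone Hsp90b1 (−0.25 ± 0.11) and the secreted factor Manf (−0.23 ± 0.11). Without the low-score columns 3 were lower and the median was −0.21. At 24 h 1 of the 20 fell, and 9 fell without the SP flowcell, with a median of −0.29. Of 17 cytosolic heat shock genes 0 were higher or lower, with a median of −0.07. Of 15 p53 targets 1 was lower, Phlda3 (−0.38 ± 0.17), and of 10 thyroid hormone genes 1 was higher and 1 lower, Ttr and the receptor Thrb (−0.47 ± 0.21). The Ttr difference rested on fasted mouse 9. Of the 13 protein genes of the mitochondrial genome, 7 passed the count minimum, 0 were higher and 1 lower, mt-Nd2 (−1.08 ± 0.43), with a list median of −0.39. Of the 7, 6 were lower without the low-score columns, with a median of −0.64, and without chow mouse 2 the signs of several turned.

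Receptor subunits and neurogenesis genes gave few differences. Of 18 subunits of ionotropic glutamate receptors, 1 was higher, the kainate receptor subunit Grik4 (0.69 ± 0.29), which is rich in CA3, and 1 lower, Grik3 (−0.55 ± 0.25). Of 14 subunits of the GABA-A receptor 0 were higher or lower, with Gabra5, the subunit of extrasynaptic receptors in CA1, at 0.44 ± 0.23. Of 11 adult neurogenesis genes 1 was higher, Calb2, also a thalamic and interneuron gene, at 0.96 ± 0.41. Dcx, a microtubule protein of newborn neurons, was at −0.25 ± 0.17, and its sign turned without the low-score columns.

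The lists of areas and cell types were tested gene by gene in the same way. Of 10 genes of CA3 and CA2, 4 were higher and 0 lower, with a median of 0.68, namely Cacng5 (0.90 ± 0.34), Grik4, Rgs14 (0.66 ± 0.29) and Cpne4 (0.83 ± 0.38). Without the low-score columns 0 of them reached that mark, with a median of 0.63. Of 10 neocortex genes 5 were lower, with a median of −0.66, and without those columns 1 was lower, with a median of −0.11. Of 8 choroid plexus genes tested 6 were higher, with a median of 2.11, and without fasted mouse 9 none of the 6 tested was, with a median of 0.18. The 10 dentate genes not used by the rule had 0 higher or lower and a median of 0.27, which was 0.03 without the low-score columns, and the 14 general hippocampal genes had 1 higher, Grik4, with a median of 0.39, which became 0 higher and 0.02. Of 8 CA1 genes 0 were higher and 1 lower, with a median of 0.10, and without those columns the counts were the same and the median was −0.24.

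Among the remaining markers, 3 of 10 thalamus and habenula genes were higher, namely Calb2, Prkcd (1.07) and Gpr151 (0.46), and Rora was lower. Drd2, a dopamine receptor gene, was the 1 of 7 striatum genes that was higher (0.58), and 2 of 10 interneuron genes were lower, Lamp5 (−0.94 ± 0.33) and Pvalb (−0.61 ± 0.23), a calcium-binding protein of fast-spiking cells. The endothelial list had 1 of 10 lower, Flt1 (−0.27 ± 0.11), and the list of oligodendrocyte progenitors 1 of 10, Olig2 (−0.31 ± 0.14). Astrocyte, microglia, oligodendrocyte, meninges and blood lists had 0 members higher or lower, with medians of 0.007, −0.07, −0.09, −0.30 and −0.23.

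**Figure D5:**
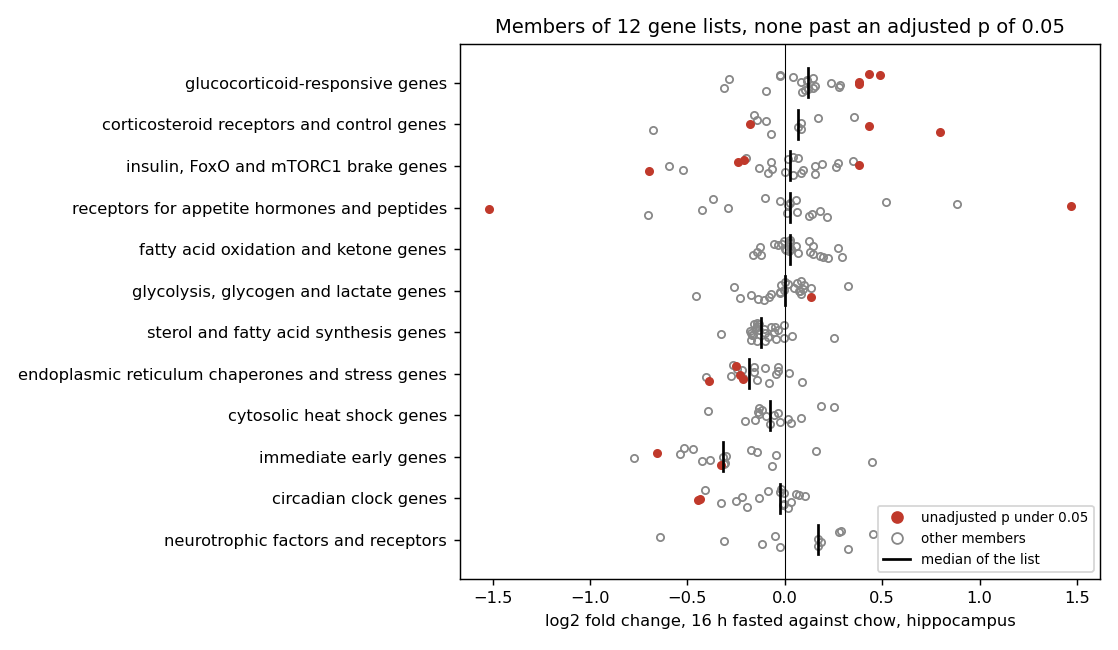
Log2 difference of fasted minus chow mice in the 16 h hippocampus for every tested member of 12 gene lists, with 1 point per gene, filled where the unadjusted p was under 0.05, and a line at each list's median. Medians lie between −0.31 for immediate early genes and 0.17 for neurotrophic factors and receptors, and no gene had an adjusted p under 0.05.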

How the data were processed

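RNA from dissected brain areas was depleted of ribosomal RNA, made into libraries with NEBNext directional reagents and sequenced. According to the submitters' processing notes the authors used bcl2fastq 2.20.0, STAR 2.7.3a on GRCm39 and R 4.1.3. The values the authors deposited are raw read counts per Ensembl gene for 57010 genes in 185 columns, and the strand column counted and the annotation release are not given in the sources used here. Symbols and positions came from GENCODE vM39, which matched 56310 of the 57010 identifiers. Samples were grouped by diet and duration from the labels, and all columns of the table could be matched to a mouse but not to a brain area, so the hippocampal column was found by the dentate gyrus rule. The members and the gene lists were chosen with earlier results of these data known.

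Counts of the 14 columns of the 16 h experiment were filtered with filterByExpr, scaled by TMM and tested in edgeR 4.0.16 (R 4.3.3) by the quasi-likelihood test with diet as the only term, and p-values were adjusted over all genes by Benjamini and Hochberg, with a threshold of 0.05. The difference of the 24 h and 16 h effects came from 1 such fit over 5 groups, and the comparison with the other columns of a mouse from limma 3.58.1 on log2 CPM with a prior count of 2. CPM values per mouse used TMM-scaled library sizes, except those of the rule and of the cell type and area markers (Prox1, Cux2, Ttr and the list means), which used total counts. DESeq2 1.42.0, limma with voom and sva 3.50.0 gave alternatives, and all fits were tested on simulated counts. Tables and figures were made with Python 3.11.15, numpy 2.4.6, pandas 2.3.3, scipy 1.17.1 and matplotlib 3.10.9. Since fewer than 20 genes were called, the genes named are the 30 of lowest p and, in each list, up to 4 members of lowest p; genes called at 24 h, in the difference or against the other columns are named as those results. Prox1, Cux2, Ttr and Zfp36 were picked out after their values were seen. Some genes that this rule names are not reported here.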

Additional observations from a re-analysis of the deposited data

Results flagged for a closer look

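Of 92 groups of values tested for a sample far from the others, 3 had one by Dixon's criterion, and chance marks about 5% of groups. Slc6a15 in the fasted mice had a gap of 0.7397 of the group's range, from mouse 10, the lowest at 70.2 CPM. Zeb1os1 in the chow mice had a gap of 0.8776 of the range, from mouse 2, the lowest at 13.7 CPM. The choroid plexus genes in the fasted mice had a gap of 0.8289 of the range, from mouse 9, the highest at 4.35 on the log2(CPM+1) scale.

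For 10 genes the fasting effect differed between the 24 h and the 16 h experiment by edgeR's quasi-likelihood test of the difference itself. The log2 difference of the effects was 4.06 for Cdkn1a, 2.76 for Plin4, 2.14 for Arrdc2, 2.12 for Hif3a, 2.12 for Sult1a1, 2.00 for Sh2b2, 1.58 for Kirrel2, 1.44 for Nfkbia, 1.21 for Tma16 and 0.85 for Spns2. The 16 h effects of these genes were −0.29 for Cdkn1a, 0.38 for Plin4, 0.15 for Arrdc2, 0.88 for Hif3a, 0.24 for Sult1a1, −0.16 for Sh2b2, 0.23 for Kirrel2, 0.15 for Nfkbia, 0.08 for Tma16 and 0.16 for Spns2. Over 30 alternatives the difference stayed past an adjusted p of 0.05 in 29 for Cdkn1a and for Tma16, in 26 for Sh2b2, in 25 for Hif3a and for Plin4, in 24 for Arrdc2, in 16 for Kirrel2, in 15 for Nfkbia, in 12 for Spns2 and in 9 for Sult1a1. Duration, housing, hemisphere and sequencing run cannot be told apart in this contrast.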

How the results depend on the processing

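With 4 against 5 mice, and 3 of the 9 columns poor in dentate gyrus, small differences are beyond what these counts can show. The count of 0 genes for fasted against chow mice held under all 26 alternatives, which changed the tool, scaling, count minimum, rule, covariates, mice and unit. A margin of 2 in the rule left out chow mouse 1 only, so it repeats the fit without that mouse. Their lowest adjusted p was 0.095 (without fasted mouse 10), and 653 to 2852 genes had an unadjusted p under 0.05. With cages as the unit the lowest adjusted p was 0.294. No paired analysis was possible because the chow and fasted mice share no replicate numbers. With the round of cages, which the diets do share, as a covariate the lowest adjusted p was 0.929.

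At 24 h DESeq2 called 601 genes, leaving out single mice gave 79 to 164, the flowcell as a covariate 486, and leaving out the mice of the SP flowcell 1176, or 1918 by DESeq2. The difference of the fasting effects gave 2 genes without the HFD columns, 0 without the columns of dentate score under 4, 74 without the SP flowcell, 39 with the flowcell as a covariate, 11 with the dentate score as a covariate and 2 to 16 without single mice of either experiment. The comparison with the other columns gave 0 genes with equal weight of those columns, 0 with chow and fasted mice only, 0 without the low-score columns and 0 to 1 without single mice. The alternatives on the dentate score and the flowcell, and those without single 24 h mice for the difference, were chosen after seeing the data. The cause of these changes was not tested.

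Over 154 named genes and 26 alternatives, 40 of 3983 estimates turned in sign, for 27 genes and for 0 of the 30 of lowest p, and 0 passed the threshold. With a surrogate variable the log2 differences were 0.063 for Dcx, −0.0671 for Tdo2, −0.26 for Stxbp6, −0.24 for Prox1, 0.0093 for Ldhb, 0.0522 for Vip, 0.0197 for Gria4, 0.001 for Opalin, 0.0308 for Mag and 0.0224 for Mbp. With no minimum of counts per column they were 0.0212 for Slc16a7, −0.0461 for Grin2c and −0.0917 for C1qa. With a margin of 2, the same fit as without chow mouse 1, they were 0.0261 for Opalin and 0.0067 for Mbp. With the dentate score as a covariate they were −0.21 for Stxbp6, −0.15 for Prox1 and 0.0042 for Mbp. Without the low-score columns they were 0.22 for Dcx, 0.0174 for S100b, −0.0888 for Spink8, −0.0514 for Prox1, 0.10 for Tac2, 0.13 for Npas4, 0.039 for Gria4, 0.42 for Rspo1, 0.001 for Ntrk2 and 0.26 for Cckbr. Without single mice they ranged from −0.38 to 0.0261 for Opalin, −0.36 to 0.0652 for Mbp, −0.47 to 0.0099 for Mag, −0.97 to 0.0398 for mt-Nd4, −1.03 to 0.0708 for mt-Nd6, −0.44 to 0.0021 for mt-Cytb, −0.11 to 0.25 for Hba-a2, −0.33 to 0.91 for Dcn, −0.36 to 4.12 for Ttr and −0.018 to 2.7018 for Aqp1.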
